A study of Nannochloropsis oceanica with 6 samples.

Results

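Ion channels, antiporters and proton pumps are the membrane proteins that move protons, metal ions, potassium, sodium and chloride. In the marine eustigmatophyte alga Nannochloropsis oceanica (strain IMET1), 71 of 10633 genes fell in this group, chosen because the wording of their Swiss-Prot description names such a protein; the rule's exclusions removed none of the genes matched by wording. The rule reads no expression value, but it was chosen with earlier results of these data known. Transcripts were measured in 3 low CO2 cultures, which were bubbled at 5% CO2 for 1 h and then received 0.04% CO2, and in 3 high CO2 control cultures that stayed at 5% CO2. All were the same strain, grown in separate column reactors under continuous light of 80 µmol photons m-2 s-1 at 25 °C, and sampled at 24 h. Both groups shared a modified f/2 medium buffered to pH 8.2 by 10 mM Tris.

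V-type ATPases spend ATP, and proton pyrophosphatases spend pyrophosphate, to acidify vacuoles and other compartments. Antiporters use the resulting proton gradient to carry sodium, potassium or calcium the other way, and P-type ATPases pump calcium and other cations directly. Channels let ions flow down their gradients, and chloride channels and potassium antiporters balance the charge and acidity that proton pumping builds up. In photosynthetic cells such proteins also act on the chloroplast membranes, where ion fluxes accompany the light-driven proton gradient. A function given here is that of the named relative in another species, and none was tested in this alga.

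The 71 genes held 11 V-type ATPase subunits, 2 proton pyrophosphatases, 12 calcium pumps, 2 other P-type cation ATPases and 3 chloride channels. They further held 7 potassium channels, 4 genes described as voltage-gated channels, 5 magnesium transporters, 7 zinc transporters, 16 antiporters and 2 other ion channels. Of the 71, 19 were described after an Arabidopsis thaliana protein, 6 after Dictyostelium discoideum and 6 after fission yeast (Schizosaccharomyces pombe). Gene Ontology terms, which the choice did not use, were given for 66 of the 71 genes, against 5484 of all 10633, so shares are taken over genes with any term. A membrane term was given for 66 of the 66, against 32.7% of all genes with a term. A term with the word vacuole or vacuolar was given for 11 of the 66 (16.7%, against 2.02%), and 3 carried a chloroplast term (4.55%, against 8.61%). The description fits a cation transporter loosely for NO23G01680, named after the oxalate:formate antiporter of the bacterium Oxalobacter formigenes, which exchanges organic anions. Mean levels over the 6 libraries ran from 0 to 1360 FPKM (a level scaled by library depth and gene length) with a median of 27.3 FPKM, against a median of 23.8 FPKM over all genes.

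Libraries held 4620234 to 6112822 estimated counts, and the 71 genes took 1.05%, 1.09% and 1.08% of them in low CO2 replicates 1 to 3, against 0.971%, 0.963% and 0.926% in high CO2 replicates 1 to 3. Low CO2 replicate 1 and high CO2 replicate 3 differed most from their own groups. Low CO2 replicate 1 correlated with low CO2 replicates 2 and 3 at Pearson's r of 0.923 and 0.932 and with high CO2 replicates 1 and 2 at 0.942 and 0.946. These r values are across 9244 genes, which are not independent replicates. At 44 of the 67 channel and pump genes tested (65.7%), low CO2 replicate 1 lay nearer to the high CO2 mean than to the mean of low CO2 replicates 2 and 3. The same held at 59.2% of all 9244 genes. Results below are therefore also given without these 2 libraries, a choice made after earlier results were seen.

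Of the 71 genes, 67 passed the filter on low counts and were tested, and 3 rose in low CO2: the calcium pumps NO20G02510 and NO16G02820 and the potassium antiporter NO05G03190. None passed as lower, and 64 did not pass (edgeR's quasi-likelihood test, adjusted p below 0.05 over all genes). The 3 calls were 4.48% of the genes tested in the group, where 2.12% of all 9244 genes were called in either direction, 1.22% as higher and 0.898% as lower. At an unadjusted p below 0.05, 16 of the 67 were higher (23.9%, against 9.42% of all genes) and 4 were lower (5.97%, against 9.18%). DESeq2's Wald test called 8 as higher, against 3.71% of all genes, and 1 as lower, against 2.65%; together 6.36% of all genes were called by it. The median log2 fold change of the 67 was 0.20, against 0.01 over all genes tested, and 47 of the 67 (70.1%) were above 0, against 51.4% of all genes.

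**Figure D1:**
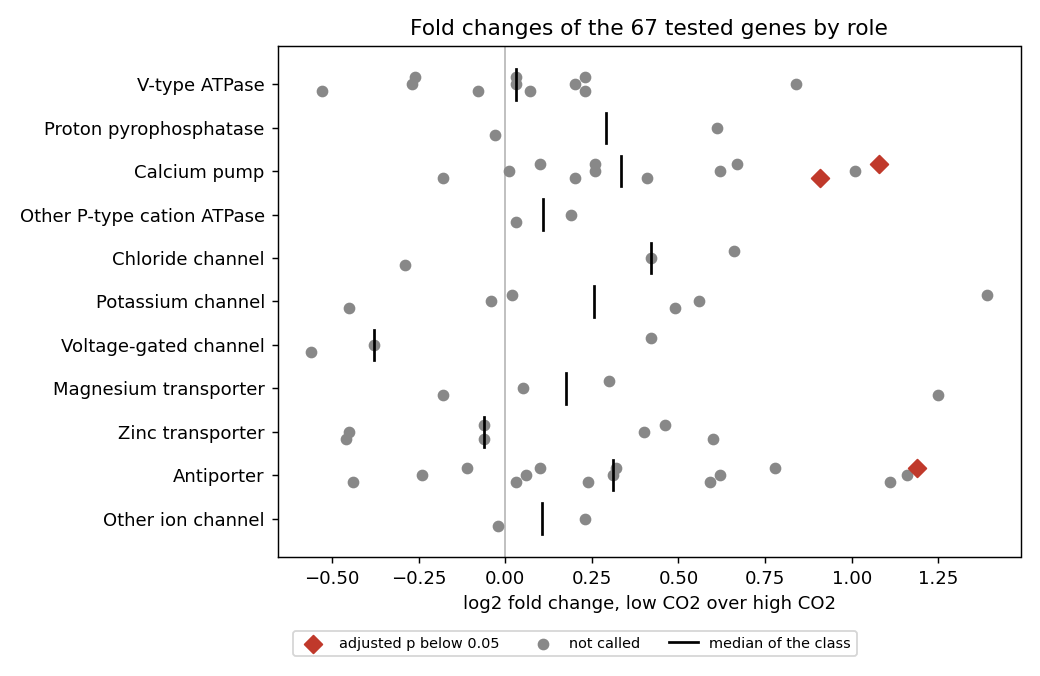
Log2 fold change, low over high CO2, of each of the 67 tested genes, by role. Diamonds mark the 3 genes called at an adjusted p below 0.05, and black lines the median of each role, from -0.38 in voltage-gated channels to 0.42 in chloride channels.

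The clearest rise was at NO20G02510, a P-type ATPase described after the fission yeast calcium-transporting ATPase 3. It had 112, 103 and 95.2 FPKM in low CO2 replicates 1 to 3, against 61.6, 55.0 and 52.6 FPKM in high CO2 replicates 1 to 3. Every low CO2 culture lay above every high CO2 culture. It averaged 104 ± 8.49 FPKM in low CO2 and 56.4 ± 4.66 FPKM in high CO2 (SD, n = 3 each), a rise of 1.88-fold (log2 fold change 0.91, SE 0.13, adjusted p = 0.0182 in edgeR). NO16G02820, described after a calcium-transporting ATPase of Bacillus subtilis, had 33.4, 31.5 and 23.1 FPKM in low CO2 and 12.9, 13.9 and 13.1 FPKM in high CO2. The groups did not overlap, and low CO2 replicate 3 was the lowest of its group. The rise was 2.11-fold (log2 fold change 1.08, SE 0.19, adjusted p = 0.0388), and it did not pass once a smooth trend on gene length was removed from each library (adjusted p = 0.0761). NO05G03190 is described as K(+) efflux antiporter 5, an Arabidopsis exchanger of potassium for protons. It had 12.7, 14.4 and 14.4 FPKM in low CO2, against 6.63, 6.28 and 4.47 FPKM in high CO2, again without overlap. It rose 2.28-fold (log2 fold change 1.19, SE 0.20, adjusted p = 0.0349), and it did not pass in limma on log2(FPKM + 1) or log2(FPKM + 0.1) (adjusted p = 0.0566 and 0.0584).

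These calls were lost when most single libraries were left out. Leaving out any library but low CO2 replicate 1 also lowered the calls over all genes, from 196 to between 18 and 68. NO20G02510 and NO05G03190 each lost the call when any library other than low CO2 replicate 1 was left out (adjusted p up to 0.127 and 0.163), and NO16G02820 when any high CO2 library or low CO2 replicate 2 was left out (up to 0.184). The log2 fold changes stayed between 0.81 and 0.97 for NO20G02510, between 0.90 and 1.25 for NO16G02820 and between 1.06 and 1.28 for NO05G03190. The authors' deposited table of 217 genes lists 3 channel and pump genes, NO05G03190 (log2 fold change 1.20, adjusted p = 0.000252), NO16G02820 (1.08, adjusted p = 0.000188) and the potassium channel NO10G02520 (1.40, adjusted p = 0.00663).

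**Figure D2:**
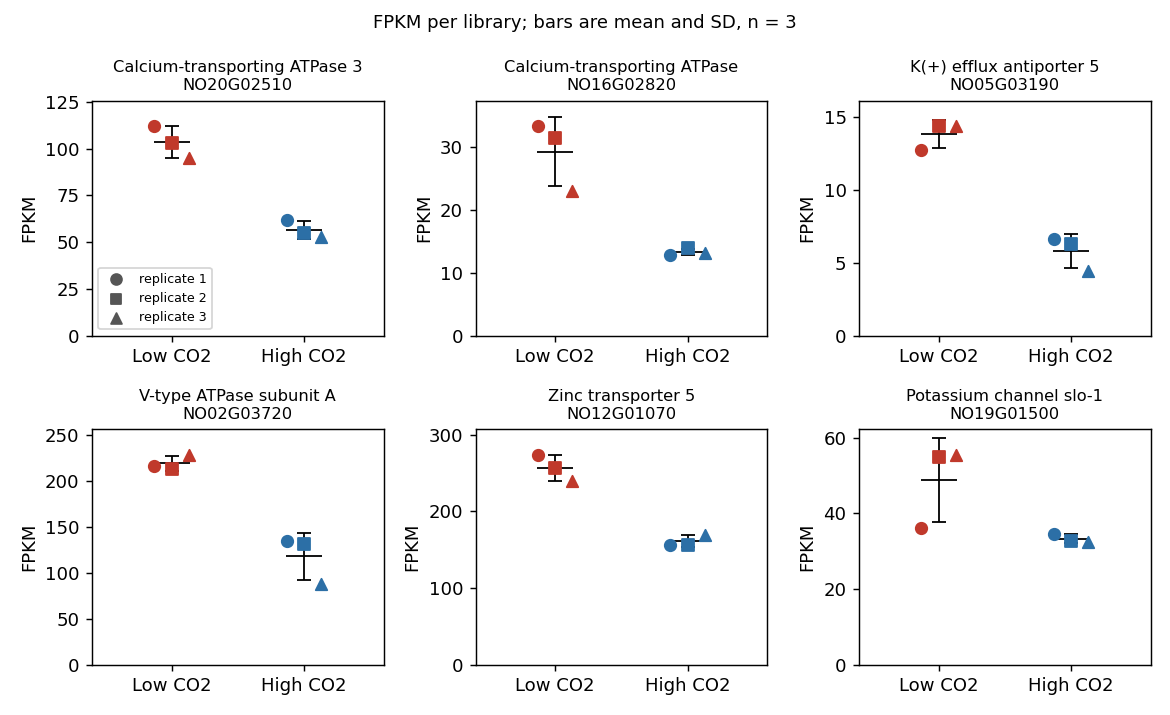
FPKM in each library for the 3 called genes (top) and 3 genes that did not overlap between groups without being called (bottom), low CO2 left and high CO2 right, with mean and SD of 3 libraries. In all 6 panels each low CO2 library lies above each high CO2 library; at the potassium channel NO19G01500, low CO2 replicate 1 (36.0 FPKM) is close to the high CO2 libraries (32.5 to 34.6 FPKM).

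Among the proton pumps, the 11 V-type ATPase genes were the most abundant class. Summed over the class they made up 63.9% to 72.5% of the TPM (a level per length, scaled to the same total in each library) of all 71 genes in a library. The class sum was 6645, 6415 and 6178 TPM in low CO2 and 5940, 6041 and 6761 TPM in high CO2, so the groups overlapped. TPM, like FPKM, divides by a gene length given for each library. No subunit passed, and the median log2 fold change was 0.03, with 7 of 11 above 0. The class held genes for subunits A, B, C, D, F, G and H of the ATP-splitting head and stalks, and for subunit a, subunit d and both proteolipids (16 and 21 kDa) of the membrane part; none of the 11 is described as subunit E. The subunits differed in direction. The catalytic subunit A (NO02G03720), which hydrolyses ATP, had 216, 213 and 229 FPKM in low CO2, against 134, 131 and 88.3 FPKM in high CO2. Its groups did not overlap, with high CO2 replicate 3 the lowest, and it lay at the threshold (log2 fold change 0.84, SE 0.16, adjusted p = 0.0501). It passed with no filter on low counts, with a mean of at least 50 counts, with another scaling (RLE) and with the length trend removed (adjusted p = 0.0488, 0.0466, 0.0482 and 0.0481).

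The other subunits had smaller fold changes. Subunit B (NO16G02040), which forms the head with subunit A, had 299, 253 and 257 FPKM in low CO2, against 237, 220 and 243 FPKM in high CO2 (log2 fold change 0.07, SE 0.14, adjusted p = 0.823). Its groups did not overlap in FPKM, and neither did those of the 16 kDa proteolipid NO14G03000 (0.23, SE 0.15, adjusted p = 0.425). The fold changes are fitted on scaled counts, whereas FPKM also divides by the gene length given for each library. FPKM totals ran from 657399 to 735896 per library. In counts over library totals, low CO2 replicate 2 of NO16G02040 (3414 of 5607726) lay below high CO2 replicate 3 (2948 of 4826380). The groups of subunit B overlapped on that scale. Separate FPKM ranges can thus stand beside a fold change near 0. Subunit F (NO03G01790), part of the central rotor, had 747, 494 and 490 FPKM in low CO2 and 694, 704 and 1036 FPKM in high CO2 (log2 fold change -0.53, SE 0.28, adjusted p = 0.341). Low CO2 replicates 2 and 3 lay below every high CO2 library, and low CO2 replicate 1 lay among them. The peripheral stalk subunit G (NO04G03350) and the rotor subunit D (NO15G01190) had log2 fold changes of -0.27 and -0.26 and the same order of libraries. These 3 are among the shortest genes of the class (584, 963 and 1178 bases). Subunit a (NO20G02230, 1000 bases) and subunit H (NO15G00360, 1144 bases) are short as well. Their log2 fold changes were above 0, at 0.23 and 0.20 (adjusted p = 0.283 and 0.387), and 0.34 and 0.30 with the length trend removed. Across the 11 genes, Spearman's rho of length and log2 fold change was 0.409, and over all 9244 genes it was 0.22; the genes share their libraries, and this is a description. The part of gene length in the contrast between subunit A and subunits D, F and G was not tested. With the length trend removed, the log2 fold change of subunit A was 0.84, and those of F, G and D were -0.37, -0.16 and -0.18. The most abundant gene of the whole group was NO20G02230, the membrane subunit a that carries the proton path. It had 1262, 1497 and 1351 FPKM in low CO2, against 1261, 1362 and 1427 FPKM in high CO2, and the groups overlapped in FPKM. Its counts were 4523, 6875 and 7304 in low CO2, against 4799, 4957 and 4110 in high CO2. Over library totals these counts did not overlap, with low CO2 replicate 1 only just above high CO2 replicate 2. The log2 fold change in counts was 0.23 (SE 0.10, adjusted p = 0.283). The gene model averaged 1000 bases, shorter than the coding sequence of a 116 kDa protein. The level per length thus rests on a short model whose length differed between libraries.

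**Figure D3:**
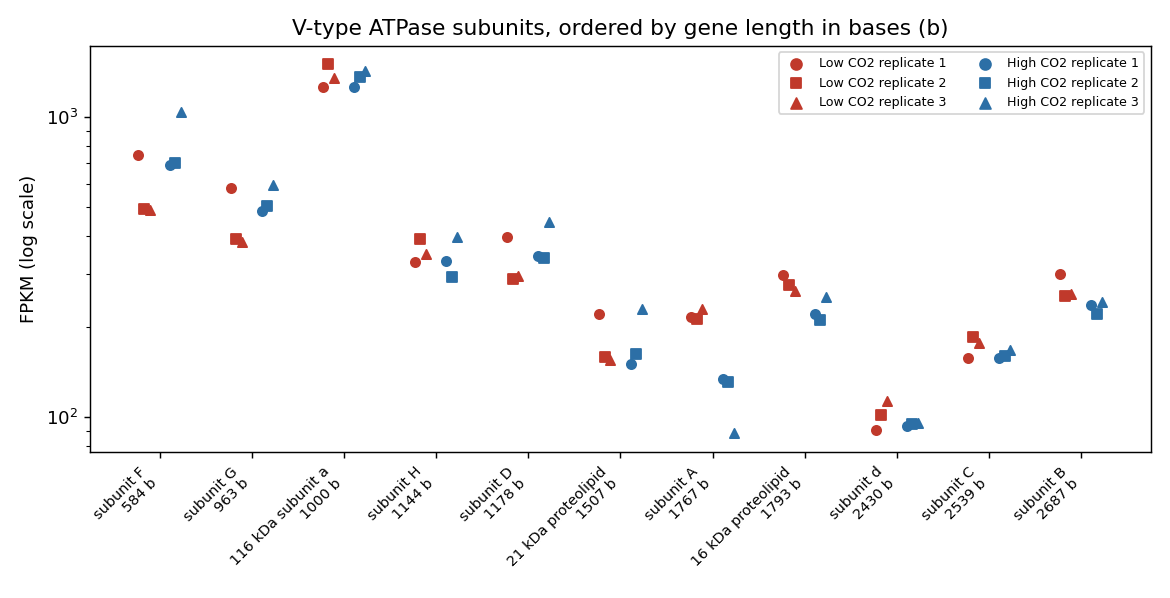
FPKM (log axis) of the 11 V-type ATPase subunits in each library, ordered by gene length, low CO2 left and high CO2 right of each tick. Subunit A is higher in each low CO2 library; at subunits F, G and D, low CO2 replicates 2 and 3 lie below the high CO2 libraries and low CO2 replicate 1 among them.

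Of the proton pyrophosphatases, NO13G01250, described after the vacuolar pump of barley, had 51.0, 82.6 and 71.0 FPKM in low CO2, against 52.5, 46.6 and 28.8 FPKM in high CO2. Low CO2 replicate 1 fell within the high CO2 range and the other low CO2 libraries lay above it, and the gene did not pass (log2 fold change 0.61, SE 0.23, adjusted p = 0.214). NO19G01860, described as membrane proton pump 2 of Arabidopsis, averaged 32.8 ± 8.75 FPKM in low CO2 and 31.7 ± 1.41 FPKM in high CO2 (log2 fold change -0.03, SE 0.17, adjusted p = 0.931).

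Calcium pumps, a class set here by the word calcium-transporting in the description alone, held 2 of the 3 calls. Which ion these proteins carry was not tested. Of the 12, 2 rose (NO20G02510 and NO16G02820, above), none passed as lower and 10 did not pass. Over all genes, 1.22% were called as higher. Of the 12 fold changes 11 were above 0, with a median log2 fold change of 0.34, against 51.4% and 0.01 over all genes. The class is long, with a median of 3325 bases, against 1860 bases over all genes tested. With the length trend removed, its median was 0.24, against 0.02 over all genes. The class sum was 876, 1044 and 988 TPM in low CO2, against 843, 773 and 715 TPM in high CO2, without overlap. Pumps of several families were present. Beside the called genes, NO20G01420, a further gene described as calcium-transporting ATPase 3, had 24.7, 53.3 and 57.1 FPKM in low CO2, against 27.3, 23.3 and 9.12 FPKM in high CO2. Low CO2 replicate 1 sat among the high CO2 libraries and high CO2 replicate 3 was the lowest of all (log2 fold change 1.01, SE 0.38, adjusted p = 0.228). The 2 PAT1 genes, described after a Dictyostelium calcium pump, did not overlap between groups. NO02G03140 had 19.8, 20.2 and 24.7 FPKM in low CO2 and 13.2, 15.3 and 17.8 FPKM in high CO2 (log2 fold change 0.41, SE 0.16, adjusted p = 0.232). NO02G03150 had 8.30, 11.6 and 8.20 FPKM in low CO2 and 6.09, 6.05 and 4.63 FPKM in high CO2 (0.67, SE 0.18, adjusted p = 0.119). The most abundant pumps had small fold changes: NO11G00410 averaged 168 ± 40.4 FPKM in low CO2 and 182 ± 15.2 FPKM in high CO2 (log2 fold change 0.01, adjusted p = 0.984), and NO20G01430 averaged 152 ± 38.0 and 163 ± 9.68 FPKM in low and high CO2 (-0.18, adjusted p = 0.568). Both are described as calcium-transporting ATPase 3 as well, so genes of 1 description held a call and the smallest fold change of the class alike. NO01G05560, described after a plasma membrane-type pump of Arabidopsis, averaged 18.1 ± 5.29 FPKM in low CO2 and 14.9 ± 1.10 FPKM in high CO2 (log2 fold change 0.20, SE 0.19, adjusted p = 0.583). The endoplasmic reticulum-type pump NO12G03400 and the secretory pathway pump NO14G02170 (type 2C) had log2 fold changes of 0.26 and 0.10 (adjusted p = 0.405 and 0.757). The vacuolar YPK9-type ATPases of yeast, a separate P-type branch, are NO09G02580 and NO20G02500 here, with log2 fold changes of 0.19 and 0.03 (adjusted p = 0.525 and 0.906).

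Of 15 antiporters tested, NO05G03190 rose and 14 did not pass. Fold changes were above 0 at 12 of 15 (median on the log2 scale 0.31), against 51.4% and 0.01 over all genes. Of the Arabidopsis sodium/hydrogen exchangers behind several descriptions, number 7 (SOS1) carries sodium out across the plasma membrane, and number 8 is its close relative. NO16G01350 had 4.56, 12.1 and 11.3 FPKM in low CO2, against 4.76, 5.74 and 1.32 FPKM in high CO2 (log2 fold change 1.16, SE 0.52, adjusted p = 0.284). NO13G03010 had 2.91, 8.81 and 9.35 FPKM in low CO2, against 5.10, 3.21 and 0.88 FPKM in high CO2 (1.11, SE 0.61, adjusted p = 0.363). At both genes low CO2 replicate 1 fell in the high CO2 range and high CO2 replicate 3 lay below the other libraries of its group. NO30G00340 had 9.37, 15.2 and 15.1 FPKM in low CO2 and 9.87, 9.52 and 5.86 FPKM in high CO2 (0.78, SE 0.25, adjusted p = 0.16), while the longer NO03G02820 averaged 18.5 ± 0.801 FPKM in low CO2 and 19.1 ± 2.76 FPKM in high CO2 (-0.11, adjusted p = 0.721). NO11G00780, described after the vacuolar-type exchanger 4, had 12.7, 19.0 and 20.4 FPKM in low CO2 and 11.3, 13.3 and 8.30 FPKM in high CO2 (0.59, SE 0.22, adjusted p = 0.215).

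NO09G00760, described as the chloroplast potassium antiporter 2 of Arabidopsis, had 29.2, 47.9 and 48.5 FPKM in low CO2, against 39.8, 36.1 and 38.1 FPKM in high CO2 (log2 fold change 0.06, SE 0.16, adjusted p = 0.862). The low CO2 group thus spanned both sides of the high CO2 range. NO22G02090, described after the mouse sodium/hydrogen exchanger 8, averaged 58.5 ± 16.0 FPKM in low CO2 and 55.2 ± 6.58 FPKM in high CO2 (0.03, adjusted p = 0.942). The lowest fold change of the class was at NO03G03670, described after the bacterial sodium antiporter NhaA. It had 27.9, 28.0 and 28.4 FPKM in low CO2, against 41.9, 36.9 and 44.0 FPKM in high CO2, with no overlap (log2 fold change -0.44, SE 0.13, adjusted p = 0.15). The most abundant gene of the class was the oxalate:formate-type NO23G01680, with 114, 149 and 148 FPKM in low CO2 and 113, 108 and 118 FPKM in high CO2 (0.24, SE 0.10, adjusted p = 0.274). The groups of NO08G02260 (sodium/proton antiporter 1) and of the low-level NO08G03660 did not overlap either (log2 fold changes 0.32 and 0.62, adjusted p = 0.283 and 0.354). NO25G02010, NO28G00890 and NO19G00470 had log2 fold changes of 0.31, 0.10 and -0.24 (adjusted p = 0.299, 0.813 and 0.748).

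None of the 6 potassium channels tested passed. The largest fold change of all 67 genes was at NO10G02520, described as SKOR, an outward-rectifying potassium channel of Arabidopsis. It had 6.53, 7.92 and 9.14 FPKM in low CO2, against 3.82, 3.45 and 1.31 FPKM in high CO2, without overlap. Its log2 fold change was 1.39 (SE 0.35, adjusted p = 0.104 in edgeR, 0.00541 in DESeq2). The neighbouring KOR1-type channel NO10G02530, of the same family in rice, averaged 22.1 ± 3.83 FPKM in low CO2 and 15.0 ± 3.94 FPKM in high CO2 (0.49, SE 0.20, adjusted p = 0.246). NO19G01500, described after the calcium-activated potassium channel slo-1 of Caenorhabditis elegans, had 36.0, 54.8 and 55.5 FPKM in low CO2, against 34.6, 32.7 and 32.5 FPKM in high CO2 (0.56, SE 0.15, adjusted p = 0.117 in edgeR, 0.0374 in DESeq2). The ATP-sensitive channel type NO01G00320 varied within groups, from 22.0 to 38.9 FPKM in low CO2 and from 24.5 to 51.9 FPKM in high CO2 (0.02, adjusted p = 0.978). NO11G00370 and NO29G01700 had log2 fold changes of -0.04 and -0.45 (adjusted p = 0.954 and 0.278).

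The genes described as voltage-gated channels are all named after animal potassium channels. NO07G02910, described after the Drosophila channel Shaw, was among the most abundant channels, with 205, 107 and 120 FPKM in low CO2, against 185, 196 and 166 FPKM in high CO2. Low CO2 replicate 1 was the highest of all libraries and low CO2 replicates 2 and 3 the lowest (log2 fold change -0.38, SE 0.29, adjusted p = 0.506). NO05G00130, a subfamily F type, had 41.6, 27.9 and 31.4 FPKM in low CO2, against 44.6, 46.1 and 53.0 FPKM in high CO2, without overlap (-0.56, SE 0.22, adjusted p = 0.233). NO24G01950, a subfamily A type, had a log2 fold change of 0.42 (adjusted p = 0.502). Both channels of the transient receptor potential family, NO03G03090 and NO02G00340, did not pass (log2 fold changes -0.02 and 0.23, adjusted p = 0.984 and 0.813), with 2.64 to 12.7 FPKM on average.

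The chloride channel class held 3 genes, and none passed. NO03G05060 is described after CLC-e, a thylakoid member of the family in Arabidopsis. It had 10.7, 23.4 and 23.5 FPKM in low CO2, against 13.9, 11.2 and 9.01 FPKM in high CO2 (log2 fold change 0.66, SE 0.28, adjusted p = 0.264). Low CO2 replicates 2 and 3 lay above every high CO2 library and low CO2 replicate 1 among them, the same pattern as at NO03G04820, chloride channel protein E of Dictyostelium (0.42, SE 0.28, adjusted p = 0.443). NO01G00340, described after the animal chloride channel 2, had 23.1, 26.6 and 26.1 FPKM in low CO2 and 32.4, 30.8 and 25.2 FPKM in high CO2 (-0.29, SE 0.12, adjusted p = 0.247).

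Among 7 zinc transporters none passed. NO12G01070, described as zinc transporter 5 of rice, a member of the ZIP family of uptake carriers, had 274, 257 and 239 FPKM in low CO2, against 157, 156 and 170 FPKM in high CO2. The groups did not overlap, and the fold, low over high CO2, was 1.52 (log2 fold change 0.60, SE 0.14, adjusted p = 0.0759). It passed in DESeq2 (adjusted p = 0.0107) and in both limma fits (0.0324 and 0.0321). In the opposite direction, NO08G01780, described after SLC39A7, which releases zinc from the secretory pathway in mammals, had 53.9, 61.1 and 54.6 FPKM in low CO2 and 73.8, 78.0 and 70.3 FPKM in high CO2. It did not overlap either (log2 fold change -0.46, SE 0.11, adjusted p = 0.096; 0.0315 in DESeq2). A ZIP1-type gene, NO04G03710, had 43.0, 25.4 and 22.5 FPKM in low CO2 and 42.9, 42.5 and 38.1 FPKM in high CO2 (-0.45, SE 0.30, adjusted p = 0.441). The abundant NO16G01960 averaged 126 ± 11.3 FPKM in low CO2 and 129 ± 7.83 FPKM in high CO2 (-0.06, adjusted p = 0.756). NO09G02370, NO24G01150 and NO11G01490 had log2 fold changes of 0.46, 0.40 and -0.06 (adjusted p = 0.352, 0.614 and 0.874). The class sum was 750, 801 and 754 TPM in low CO2 and 648, 652 and 591 TPM in high CO2, without overlap. NO12G01070 was the most abundant zinc transporter and weighs most in that sum. Of the 7 fold changes 3 were above 0 and 4 below, with a median log2 fold change of -0.06.

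Of 4 magnesium transporters tested none passed. The low-level NO21G01570, described as MRS2-7 of Arabidopsis, had 2.29, 2.10 and 2.06 FPKM in low CO2, against 0.95, 1.04 and 0.59 FPKM in high CO2, without overlap (log2 fold change 1.25, SE 0.37, adjusted p = 0.143). The more abundant NO04G01650, described after the bacterial channel MgtE, averaged 52.9 ± 13.9 FPKM in low CO2 and 48.3 ± 9.53 FPKM in high CO2 (0.05, adjusted p = 0.903). The chloroplast-type NO02G05540 (MRS2-11) averaged 8.88 ± 2.88 FPKM in low CO2 and 9.58 ± 2.18 FPKM in high CO2 (-0.18, adjusted p = 0.749). NO11G00750 (NIPA8) had 14.8, 4.98 and 6.03 FPKM in low CO2 and 5.60, 6.82 and 7.78 FPKM in high CO2 (0.30, SE 0.46, adjusted p = 0.748), so low CO2 replicate 1 alone lay above the rest.

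The 4 genes not tested were at or near 0. NO17G02180, a mitochondrial magnesium transporter type, and NO25G02020, a cation/H(+) antiporter 20 type, had 0 counts in every library. NO29G01710 is a short model described as a tandem-pore potassium channel (type c) of rice. It had 0, 6 and 10 counts in low CO2 replicates 1 to 3 and 0 in each high CO2 library. That is at least 4.91-fold higher in low CO2, taking 3 counts in all as the most that the high CO2 zeros allow. Low CO2 replicate 1 was at 0 as well, and the bound was 2.94-fold without low CO2 replicate 3. NO07G02920, a Shaw-type model, had 0, 3 and 8 counts in low CO2 and 0 in each high CO2 library, at least 3.38-fold higher; without low CO2 replicate 3 only 3 counts remained and no bound could be given. Both follow a longer gene of the same description, between which counting is uncertain, and the floors cover counting error only.

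**Figure D4:**
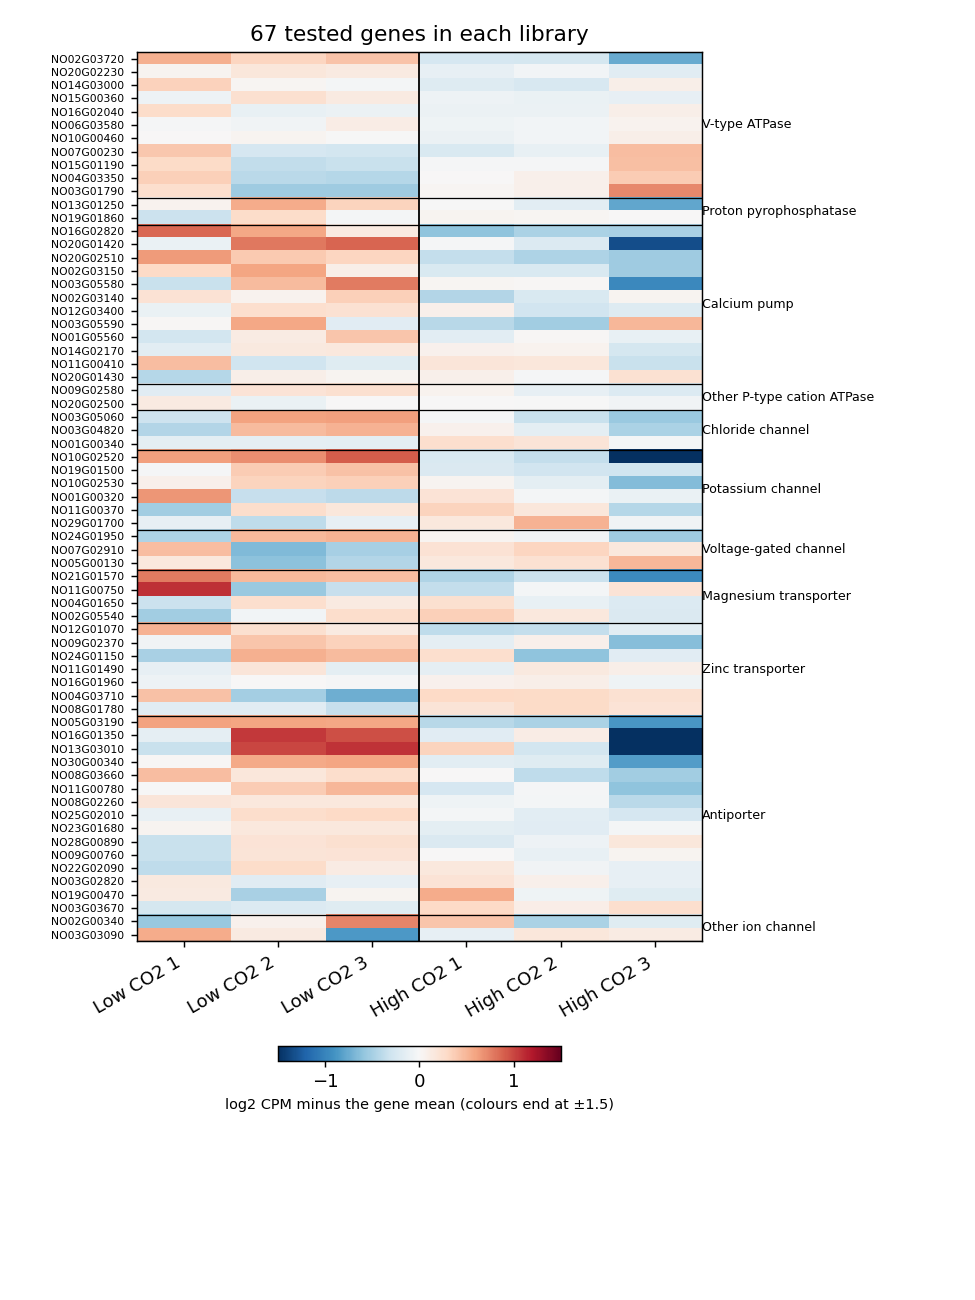
Log2 CPM (counts scaled to library size, prior count 2) of each of the 67 tested genes minus its mean over the 6 libraries, by role, low CO2 left of the line and high CO2 right of it. High CO2 replicate 3 shows the lowest values at NO16G01350, NO13G03010 and NO10G02520, and at 44 of the 67 genes low CO2 replicate 1 lies nearer to the high CO2 mean than to low CO2 replicates 2 and 3.

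Over the 67 genes tested, 17 had FPKM ranges that were separate between low and high CO2 (25.4%), the same share as over all genes tested (25.4%). Of these, 14 were higher in low CO2, against 13.6% of all genes, and 3 were lower, against 11.8%. The 3 that were lower are NO03G03670, NO05G00130 and NO08G01780.

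Without low CO2 replicate 1 and high CO2 replicate 3, 31 of the 67 genes passed as higher and 13 as lower, together 65.7%. Over all genes 36.6% were then called, 17.2% as higher and 19.4% as lower. Each group then held 2 libraries that were close to each other. The pair left out had been picked for differing most from their own groups, which lowers the spread within groups. The adjusted p-values of this run are therefore too small and serve as description only. Of the calcium pumps, 9 passed as higher and 1 as lower; of the antiporters, 9 and 2; of the V-type subunits, 4 and 3; of the chloride channels, 2 and 1; of the zinc transporters, 1 and 2. The V-type subunits F, G and D passed as lower (log2 fold changes -0.59, -0.46 and -0.33) and subunit A as higher (0.63, adjusted p = 3.95e-07). The Shaw-type channel NO07G02910 passed as lower (-0.85, adjusted p = 1.33e-09), as did the ZIP1-type NO04G03710 (-0.92, adjusted p = 1.22e-06). The calcium pump NO11G00410, at a log2 fold change of 0.01 in all libraries, passed as lower (-0.42, adjusted p = 4.28e-05). Without low CO2 replicate 1 alone, 14 passed as higher, against 7.02% of all genes, and 6 as lower, against 10.2%, together 29.9% of the 67 (17.2% of all genes).

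**Figure D5:**
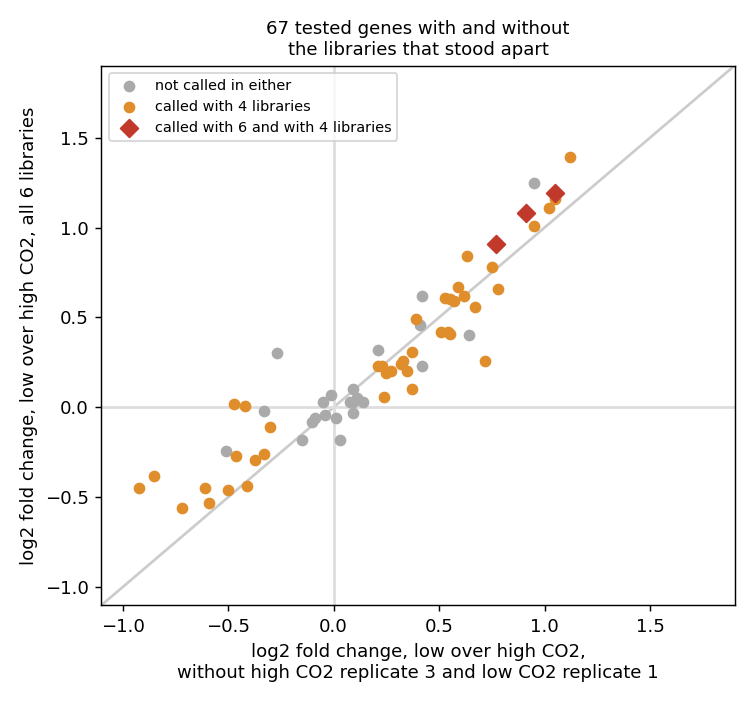
Log2 fold change, low over high CO2, of the 67 tested genes with all 6 libraries (vertical) and without low CO2 replicate 1 and high CO2 replicate 3 (horizontal). Orange points are called with 4 libraries alone, red diamonds are the 3 genes called with 6 and with 4 libraries, and the grey line marks equal values.

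Channel and pump genes were longer than most, with a median of 2345 bases over the 71, against 1860 bases over all genes tested. Spearman's rho of length and log2 fold change was 0.216 over the 67 tested and 0.22 over all genes tested. Among the shortest 23 of the 67 (584 to 2054 bases) the median log2 fold change was 0.03, against -0.06 for all genes of up to 2054 bases. Among the next 22 (2056 to 2886 bases) it was 0.28, against 0.07 for all genes from there up to 2886 bases. Among the longest 22 (2955 to 6718 bases) it was 0.23, against 0.11 for all genes above 2886 bases. With the length trend removed from each library, the median of the 67 was 0.16, against 0.02 over all genes, and 3 genes passed as higher: NO20G02510, NO05G03190 and NO02G03720. None passed as lower. Of all genes 2.3% were then called, 1.25% as higher and 1.05% as lower.

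Other membrane transport genes were counted for comparison, as lists of description words without the 71 genes. Of 61 ABC transporters 2 rose and none passed as lower, with a median log2 fold change of 0.09. Of 20 nutrient uptake genes tested, 2 rose and none passed as lower (median 0.09). None passed among 9 ATP synthase genes (median 0.05), 10 anion exchangers (0.26), 9 metal transporters (0.08) and 7 aquaporins (-0.35). Of 16 calmodulin and calcium-dependent kinase genes, which read calcium signals, 2 rose and none passed as lower (median 0.11). The words chosen for plasma membrane-type proton pumps matched no further gene, but 4 genes described as a probable proton ATPase lie outside these words and the group and are not described here.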

How the data were processed

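Poly(A) RNA of 6 cultures of Nannochloropsis oceanica was compared, 3 per group; titles gave groups and replicate numbers. Tools named in the submitters' processing notes, without version or role, are STAR, featureCounts, StringTie, Trim Galore, Picard and edgeR; the build is not given in the sources used here. Per the file headers, the authors deposited an expected count (not normalized), a TPM value and an FPKM value per gene, with gene lengths. A further table deposited by the authors lists 217 genes, each with the authors' own log2 fold change, p-value and FDR.

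Expected counts were rounded, filtered with filterByExpr (9244 of 10633 genes kept), scaled by TMM and tested low minus high CO2 with edgeR 4.0.16 (robust quasi-likelihood, R 4.3.3), with Benjamini-Hochberg adjustment over all genes and a threshold of 0.05. SE was taken as |log2 fold change| over the square root of the F statistic. The biological coefficient of variation was 23.1%. On simulated counts of this comparison (200 of 9189 genes changed), 10.4%, 40.3% and 100% of 1.5-fold, 2-fold and 4-fold changes were recovered; no simulated library stood apart. FPKM describes levels, with SD over 3 libraries.

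Members, lists and roles were chosen with earlier results of these data known. Named were called members, per role the 2 highest in level and the largest fold change, and members at 0 in 1 group with at least 10 counts in the other; further members are named as values seen. Alternatives were a replicate block, other filters, RLE, DESeq2 1.42.0, limma 3.58.1 on log2(FPKM + 1) and log2(FPKM + 0.1), leaving out libraries, and removal of a loess trend on length. Figures used Python 3.11.15 and matplotlib 3.10.9. The gene table of the reference (160 genes) matched 0 members, so no positions or sequences were used. The labels name no molecular identifiers.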

Additional observations from a re-analysis of the deposited data

How the results depend on the processing

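With all libraries, 3 channel and pump genes passed as higher in low CO2 and 0 as lower, among 196 genes called in all. DESeq2 gave 8, 1 and 588, and dropping low CO2 replicate 1 with high CO2 replicate 3 (chosen after seeing the data) gave 31, 13 and 3402. Leaving out 1 library at a time gave 0 to 14 higher, 0 to 6 lower and 18 to 1610 genes in all, the highest counts coming without low CO2 replicate 1. With the replicate block, 0 members passed as higher, 0 as lower and 21 genes in all. Deviations of same-numbered libraries from their group means correlated at -0.356, 0.0828 and -0.433 for replicates 1, 2 and 3. No low CO2 library correlated best with its own number. With 3 libraries per group, deviations that sum to 0 and 2 libraries standing apart, these values cannot decide whether same-numbered cultures are paired. RLE, no filter on low counts and a minimum mean of 50 counts gave 4 higher, among 196, 193 and 209 genes in all, and the length trend removed gave 3, among 213. Limma on log2(FPKM + 1) and log2(FPKM + 0.1) gave 3 higher, among 182 and 178 genes; NO05G03190 lost its call there and NO12G01070 gained one. None of these gave a member as lower. The median log2 fold change of 0.20 stayed between 0.16 and 0.26 in every alternative run.

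Of 417 alternative values of the 28 named members tested, 334 kept direction and side of the threshold, 20 lost the call, 31 gained it and 32 changed sign. All sign changes were at members within 0.25 of 0 on the log2 scale; the cause was not tested. Without that pair of libraries, NO01G00320, NO11G00410, NO19G01860, NO20G01430 and NO20G02500 were at -0.47, -0.42, 0.09, 0.03 and -0.05, of which NO01G00320 and NO11G00410 passed (adjusted p = 0.0278 and 4.28e-05). With the block, NO01G00320 and NO11G00410 were at -0.05 and -0.01. With limma on log2(FPKM + 1), NO01G00320, NO11G00410 and NO19G01860 were at -0.14, -0.14 and 0.01, and with log2(FPKM + 0.1) at -0.15, -0.14 and 0.01. With the length trend removed, NO03G03090, NO11G00410 and NO20G02500 were at 0.10, -0.01 and -0.09. With 1 library left out, ranges were -0.41 to 0.21 for NO01G00320, -0.19 to 0.55 for NO02G00340, -0.36 to 0.31 for NO03G03090, -0.06 to 0.20 for NO04G01650, -0.27 to 0.15 for NO11G00410, -0.19 to 0.10 for NO19G01860, -0.03 to 0.08 for NO20G02500 and -0.10 to 0.20 for NO22G02090. Members tested had a mean of 19.7 to 5430 counts per library, and changes of 1.5-fold were mostly missed even in simulated counts.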

Other observations

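Among the 71 genes, 8 pairs had neighbouring locus numbers (16 genes), and 5 of the pairs carried the same description. Where a pair shares a description, counts between its members are uncertain, so sums are given in CPM (counts scaled to library size). The PAT1-type calcium pumps NO02G03140 and NO02G03150 summed to 177, 202 and 208 CPM in low CO2, against 123, 134 and 140 CPM in high CO2, without overlap. The calcium pumps NO20G01420 and NO20G01430 had fold changes of opposite sign (log2 fold changes 1.01 and -0.18). Their sum was 230, 401 and 397 CPM in low CO2, against 327, 300 and 304 CPM in high CO2, so low CO2 replicate 1 was the lowest library and low CO2 replicates 2 and 3 the highest.

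The 3 remaining pairs of like description were 2 channel pairs and 1 of calcium pumps. The pair NO03G05580 and NO03G05590, both calcium-transporting ATPase 1, summed to 61.3, 113 and 107 CPM in low CO2 and 66.1, 63.2 and 63.0 CPM in high CO2. The Shaw-type pair NO07G02910 and NO07G02920 summed to 1030, 541 and 609 CPM in low CO2 and 933, 988 and 838 CPM in high CO2. The rice-type potassium channel pair NO29G01700 and NO29G01710 summed to 26.4, 26.2 and 31.7 CPM in low CO2 and 34.4, 43.9 and 28.0 CPM in high CO2. The called calcium pump NO20G02510 lies next to the vacuolar-type ATPase NO20G02500, whose description differs and whose log2 fold change was 0.03.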
